A study of Rattus norvegicus with 4 samples.

Results

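The genes described here encode the proteins of the cytosolic ribosome, the particle that translates messenger RNA outside the mitochondria. They were chosen by name: a probe set counted if its single gene symbol was Rpl or Rps followed by a digit, or Rplp0, Rplp1, Rplp2 or Rpsa, leaving out the Rps6k kinases and symbols marked as pseudogenes. This gave 48 genes with 55 probe sets, of 14218 genes with a single symbol on the array, and each gene was read from its probe set with the highest mean. No probe set with the single symbol Rplp1 or Rplp2 was found. Of the 48 genes, 42 lay above a floor of 4.51 on the log2 scale, the 50th percentile of all values, on at least 1 array, and all 42 did so on all 4 arrays. The 48 comprise 28 large subunit proteins, the stalk protein Rplp0, 13 small subunit proteins and 6 relatives or paralogs (Rps27l, Rps4y2, Rpl7l1, Rpl3l, Rpl26l1 and Rpl39l1).

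All kidneys came from male Wistar rats of 300 to 480 g that were left for 29 min after exsanguination, as a model of donation after cardiac death, and were then machine-perfused with cold University of Wisconsin solution, an organ preservation fluid, for 3 h. The heparin group received low molecular weight heparin at 10 IU/ml in this perfusate and then in 30 min of warm perfusion, for which the fluid was a modified Krebs-Henseleit buffer with oxygen, a cell-free saline that imitated reperfusion. The PPS group received PPS, which the labels do not spell out, at the same concentration in both perfusates. The warm group had both perfusions with no supplement, and the cold group had the cold perfusion only. Each group was measured on 1 Affymetrix rat array with RNA pooled from 3 kidneys, so no difference between 2 arrays can be set against a spread between replicates, and the comparisons share arrays.

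A ribosome joins a small subunit, which reads the messenger RNA, to a large subunit, which forms the peptide bond, and each subunit is ribosomal RNA clad in many different proteins. In mammals the messenger RNAs of these proteins mostly begin with a C followed by a run of pyrimidines, the terminal oligopyrimidine (TOP) tract, through which the kinase mTOR and the protein Larp1 control their translation as a group. They are abundant and long-lived transcripts, and some of them, such as Rplp0 and Rpl13a, are used as reference genes in expression studies. In the kidney the tubular epithelium carries a large load of transport proteins and depends on continued protein synthesis.

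The TOP tract is a shared feature that the choice by name did not use, so the start sites of some of the genes described below are shown first. Each line gives 15 bases before and 15 bases from the annotated start, 5′ to 3′, from RefSeq on the GRCr8 build, with any run of a C and 7 or more further pyrimidines in capitals.
Rps27l, chr8:76443643-76443672, plus strand: gtttattcatttgtcattatttgtggtgtc
Rpl7l1, chr9:21695703-21695732, plus strand: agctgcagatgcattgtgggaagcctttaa
Rps4y2, chr4:183000898-183000927, plus strand: gcgcgcagCTCTCCTCactcgcttgtgctc
Rps23, chr2:23814502-23814531, plus strand: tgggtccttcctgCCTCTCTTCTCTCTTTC
Rps24, chr16:96502-96531, plus strand: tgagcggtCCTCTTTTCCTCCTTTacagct
Rpl19, chr10:83519049-83519078, plus strand: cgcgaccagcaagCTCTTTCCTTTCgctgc
Rpl13a, chr1:104748899-104748928, minus strand: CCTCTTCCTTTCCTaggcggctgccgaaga
Rplp0, chr12:46718376-46718405, minus strand: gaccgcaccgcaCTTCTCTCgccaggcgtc
Rpsa, chr8:128728864-128728893, plus strand: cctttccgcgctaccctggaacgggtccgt
Rps6, chr5:106420526-106420555, minus strand: gacgcctcctaggcggtcggctgtgtcaag

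Among the 41 genes with a RefSeq start, 24 (58.5%) had such a run on the sense strand within 20 bases of the annotated start, where 11.7% of all 27457 promoters did. The opposite strand held it in 1 of the 41 (2.44%), against 13.2% of all promoters. Of the 35 genes that are not relatives, 22 (62.9%) held it, against 2 of the 6 relatives, Rps4y2 and Rpl3l. Of 59 mitochondrial ribosomal protein genes, 9 (15.3%) held it. Rps27l and Rpl7l1, printed above, have no capitals, and neither do Rpsa and Rps6. Annotated starts can lie some bases from the true start, so a missing run says only that these letters are not in this window.

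The 4 arrays showed kidney markers at high signal, with the tubular protein Umod between 15.37 and 15.52 and the phosphate transporter Slc34a1 between 14.86 and 15.05. Other kidney markers were less even. Of the 9 above the floor, 6 were higher and 3 lower in warm minus cold. The largest log2 differences were 1.06 in Nphs1, 0.71 in Slc12a3 and -0.89 in Slc5a2. Between the lowest and highest array the median difference was 0.45 over these 9 genes. The difference between 3′ and 5′ probe sets for beta-actin, which grows as RNA breaks down, was 3.39 on the heparin, 3.19 on the PPS, 3.22 on the warm and 2.79 on the cold array. The 24 poly-A controls, bacterial transcripts added to the RNA before labelling, were lower on the cold array, with a median log2 difference of 1.28 for heparin minus cold, 1.10 for PPS minus cold and 1.25 for warm minus cold. All values below are as deposited and not scaled to these controls.

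In the values as deposited, the level of the ribosomal protein messenger RNAs was nearly the same on all 4 arrays, and none of the 42 genes differed by 2-fold or more in any of the 6 comparisons, where 5.22% of all 9394 genes above the floor did. Scaled to the poly-A controls instead, 41 of the 42 were past 2-fold lower on each warm-perfused array than on the cold array, as were 90.2% of all genes with heparin, 80.1% with PPS and 82.8% with warm perfusion alone. The median of all genes shifted by -1.36 for heparin, -1.18 for PPS and -1.27 for warm. Differences relative to the other genes are therefore what follows. Of all 9394 genes above the floor, the share past this size was 2.09% for heparin minus cold, 1.82% for PPS minus cold and 3.64% for warm minus cold. Set against the warm array it was 1.86% with heparin and 2.22% with PPS, and between the supplements (heparin minus PPS) 0.49%. Of the 42 genes, 36 (85.7%) spanned less than 0.2 on the log2 scale between their lowest and highest array, which held for 31.3% of all genes. The median span was 0.12, which is 1.08-fold, against 0.29 over all genes. The 42 genes sit high on the signal scale, and 38 had a mean of at least 12. Of these 38, 34 (89.5%) spanned less than 0.2, with a median of 0.11. Among the other 826 genes with a mean of at least 12, 387 (46.9%) spanned less than 0.2, with a median of 0.21. The 826 are not matched for signal, with a median mean of 12.86 against 13.84 for the 38. The highest value of any probe set was 16.4, and the part that a high signal has in the narrow spread was not tested.

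**Figure D1:**
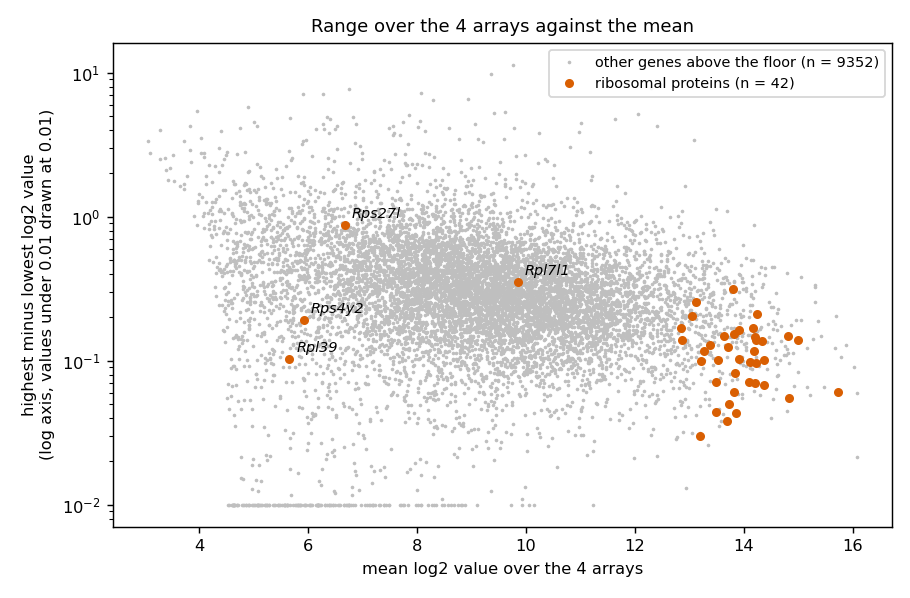
Highest minus lowest log2 value over the 4 arrays (log axis) against the mean log2 value, 1 point per gene, for the 42 ribosomal protein genes and all other genes above the floor. Most ribosomal proteins lie at a mean of at least 12 and span less than 0.2, while Rps27l spans 0.87.

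Other large protein complexes were read the same way. The 73 mitochondrial ribosomal proteins above the floor had a median span of 0.19, and the 37 proteasome subunits also had a median of 0.19, with 39 and 19 genes spanning less than 0.2. None of these genes differed by 2-fold either. Their signals were lower, with a median mean of 10.26 for mitochondrial ribosomal proteins and 10.96 for proteasome subunits, against 13.82 for the cytosolic ribosomal proteins. The difference between these lists was not tested.

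Of the 12 small subunit proteins above the floor, 9 spanned less than 0.2, with spans between 0.03 and 0.31. Rps15a, a protein of the small subunit, had log2 values of 13.21 on the heparin, 13.20 on the PPS, 13.20 on the warm and 13.18 on the cold array, the narrowest span of the 42 genes (0.03). Rps6, the ribosomal protein phosphorylated by the S6 kinases downstream of mTOR, had 13.88 on the heparin, 13.84 on the PPS, 13.86 on the warm and 13.83 on the cold array. Both genes were level across all groups. Rps23, which sits at the decoding centre, had 13.66 on the heparin, 13.75 on the PPS, 13.87 on the warm and 13.97 on the cold array. Its 3 warm-perfused values all lie below the cold one, with the heparin value lowest, a log2 difference of -0.31 in heparin minus cold (1.24-fold lower). Rpsa, a small subunit protein also known as a laminin receptor, had 13.18 on the heparin, 13.10 on the PPS, 12.99 on the warm and 13.25 on the cold array. The warm array was lowest for Rpsa, and its other probe sets gave -0.15 and -0.25 in warm minus cold beside -0.25 for the probe set used. Rps3, at the entry of the messenger RNA channel and also a DNA repair protein, had 13.07 on the heparin, 12.96 on the PPS, 13.03 on the warm and 13.16 on the cold array. Rps29, a small zinc-binding protein of the same subunit, had 15.73 on the heparin, 15.73 on the PPS, 15.75 on the warm and 15.69 on the cold array.

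**Figure D2:**
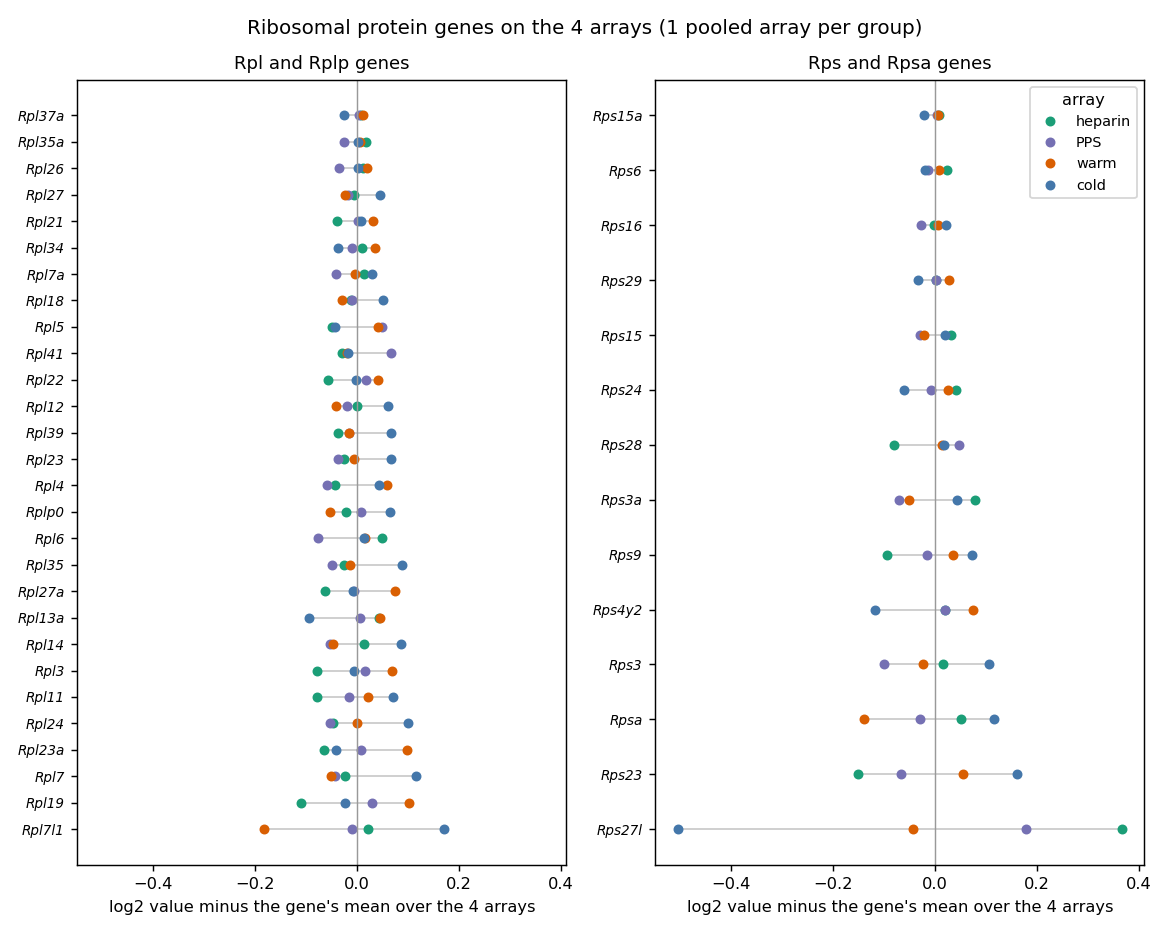
Log2 value minus the gene's own mean over the 4 arrays for each of the 42 genes above the floor, 1 coloured point per pooled array, with Rpl and Rplp genes on the left and Rps and Rpsa genes on the right, sorted by span. Nearly all points lie within 0.2 of the gene's mean, and Rps27l at the bottom right runs out to both sides, with heparin highest and cold lowest.

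Of the 26 large subunit proteins above the floor, 25 spanned less than 0.2, and the exception was Rpl19 (0.21), a protein near the exit of the peptide tunnel. Rpl19 had 14.14 on the heparin, 14.28 on the PPS, 14.35 on the warm and 14.23 on the cold array, highest on the warm and lowest on the heparin array. Rplp0, the base of the stalk that recruits translation factors, had 14.17 on the heparin, 14.20 on the PPS, 14.14 on the warm and 14.26 on the cold array. Rpl13a, which is known in human monocytes to leave the ribosome and silence inflammatory transcripts, had 15.04 on the heparin, 15.01 on the PPS, 15.05 on the warm and 14.91 on the cold array. The cold array was highest for Rplp0 and lowest for Rpl13a, so the 2 genes often used as references lay on opposite sides, by -0.12 and 0.14 in warm minus cold.

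Rpl5, Rpl11 and Rpl23, which bind the p53 inhibitor Mdm2 when ribosome assembly fails, were measured above the floor. Rpl5 had 14.18 on the heparin, 14.27 on the PPS, 14.27 on the warm and 14.18 on the cold array. Rpl11 had 13.56 on the heparin, 13.62 on the PPS, 13.66 on the warm and 13.70 on the cold array. Rpl23 stayed between 13.88 and 13.99. For Rpl22, an RNA-binding protein of the large subunit, the values were 13.16 on the heparin, 13.23 on the PPS, 13.26 on the warm and 13.21 on the cold array. All 4 genes spanned less than 0.2. Rpl41, a very short basic peptide of the large subunit, had 14.18 on the PPS array, against 14.09 on the heparin, 14.10 on the warm and 14.10 on the cold array. Rpl39, a small protein lining the exit tunnel, had a low signal of 5.62 on the heparin, 5.64 on the PPS, 5.64 on the warm and 5.72 on the cold array. Signal depends on the probes, so these levels do not rank the genes by abundance.

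The relatives Rps27l and Rpl7l1 had the widest spans of the 42 genes, 0.87 and 0.35, with Rps23 next at 0.31. The relative Rps4y2 spanned 0.19, less than Rps23, Rpsa, Rpl19 and Rps3. These relatives had mean signals of 6.68 (Rps27l), 9.85 (Rpl7l1) and 5.92 (Rps4y2), where 38 of the 42 genes had at least 12. Rps27l, a paralog of the small subunit protein Rps27 that p53 induces in human cells, had 7.04 on the heparin, 6.86 on the PPS, 6.63 on the warm and 6.17 on the cold array. All 3 warm-perfused arrays were above the cold one and both supplemented arrays above the warm one. Against the cold array the log2 difference was 0.87 for heparin (1.83-fold), 0.68 for PPS (1.61-fold) and 0.46 for warm (1.38-fold). Against the warm array it was 0.41 for heparin and 0.22 for PPS. Of all genes above the floor, 92.4% spanned less over the 4 arrays than Rps27l. Its single probe set allows no second reading. The probe set for Rps27 itself, which carries several symbols, had 14.14 on the heparin, 14.17 on the PPS, 14.15 on the warm and 14.14 on the cold array, and so did not share the pattern of Rps27l.

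Rpl7l1, a relative of Rpl7 whose yeast counterpart acts in ribosome assembly, had 9.88 on the heparin, 9.84 on the PPS, 9.67 on the warm and 10.02 on the cold array. Its second probe set had 9.34 on the heparin, 9.32 on the PPS, 9.52 on the warm and 9.59 on the cold array. Both probe sets were highest on the cold array, but heparin minus warm was 0.21 by the probe set used and -0.18 by the second one, so the direction against the warm array depends on the probe set. Rps4y2, a paralog of Rps4x, had 5.94 on the heparin, 5.94 on the PPS, 6.00 on the warm and 5.80 on the cold array.

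**Figure D3:**
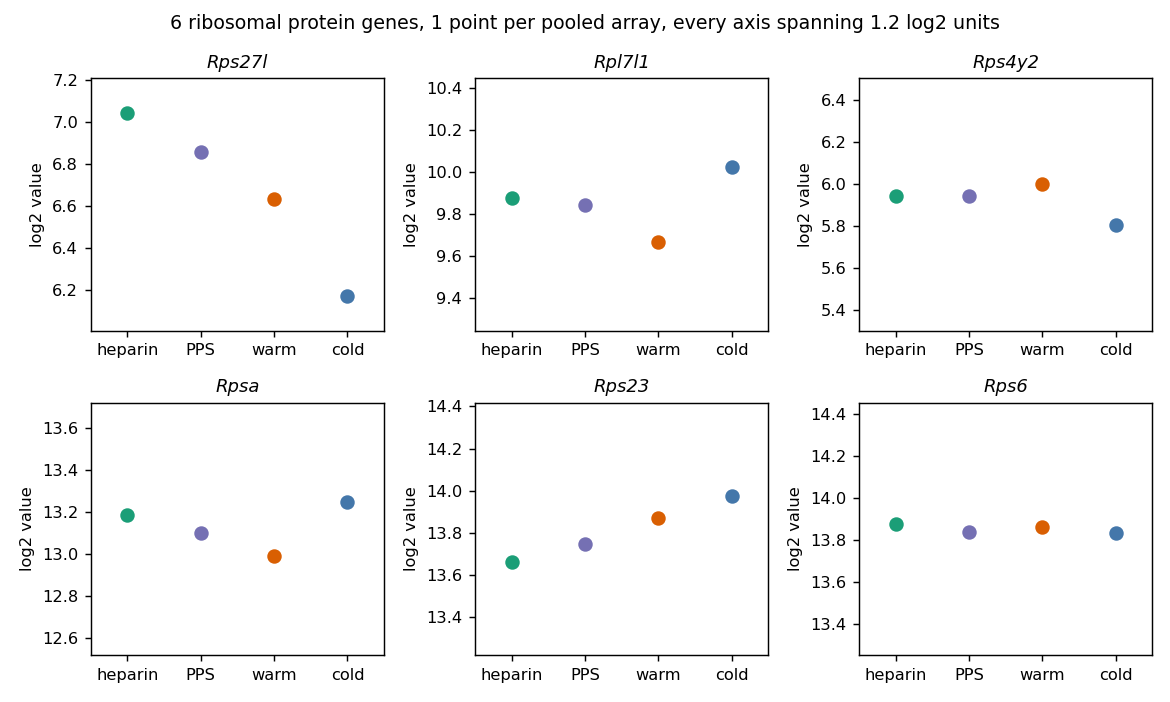
Log2 value of 6 genes on the heparin, PPS, warm and cold arrays, 1 point per pooled array, with each axis spanning 1.2 log2 units. Rps27l is at 7.04 on the heparin array, against 6.17 on the cold array, while Rps6 stays between 13.83 and 13.88.

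Warm minus cold asked what the oxygenated warm phase adds after machine perfusion in the cold. The median over the 42 genes was -0.0032 and over all genes -0.0033, with 20 of the 42 higher and 22 lower, where 46.0% of all genes were higher. The other 826 genes with a mean of at least 12 had a median of -0.07, with 34.0% higher. The 5 largest positive differences were in Rps27l (0.46), Rps4y2 (0.19), Rpl23a (0.14), Rpl13a (0.14) and Rpl19 (0.13). The 5 largest negative ones were in Rpl7l1 (-0.35), Rpsa (-0.25), Rpl7 (-0.17), Rpl14 (-0.13) and Rps3 (-0.13). All 6 connective tissue markers were lower in the same comparison, with a median log2 difference of -1.30 and 5 of them past 2-fold, and all 4 endothelial markers were higher, with a median of 0.34. The connective tissue markers were also all lower in heparin minus cold (median -0.83), and 4 of the 6 in PPS minus cold (median -0.32). All 4 endothelial markers were higher in heparin minus cold (median 0.11), but only 2 in PPS minus cold (median 0.0024). Against the warm array all 4 were lower with heparin (median -0.22) and with PPS (-0.29). There 5 of the 6 connective tissue markers were higher and 1 lower with each supplement, with medians of 0.46 for heparin and 0.74 for PPS. The part of these markers in the differences of the ribosomal proteins was not tested. At a size of 1.5-fold, which 10.9% of all genes passed, none of the 42 did.

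For heparin minus cold the median was -0.05, against 0.00 over all genes, and 14 of the 42 genes were higher and 28 lower, where 47.6% of all genes were higher. The other genes with a mean of at least 12 also had a median of -0.05, with 36.8% higher. Rps27l (0.87), Rpl13a (0.14), Rps4y2 (0.14), Rps24 (0.10) and Rpl34 (0.05) had the largest positive differences. Rps23 (-0.31), Rps9 (-0.17), Rpl24 (-0.15), Rpl7l1 (-0.15) and Rpl11 (-0.15) had the largest negative ones. Only Rps27l passed 1.5-fold, which 6.65% of all genes did. For PPS minus cold the median was also -0.05, with 17 genes higher and 25 lower, where 45.3% of all genes were higher. Among the other genes with a mean of at least 12 the median was -0.05 and 37.4% were higher. The largest positive differences were those of Rps27l (0.68), Rps4y2 (0.14), Rpl13a (0.10), Rpl5 (0.09) and Rpl41 (0.08), and the largest negative ones those of Rps23 (-0.23), Rps3 (-0.20), Rpl7l1 (-0.18), Rpl7 (-0.16) and Rpl24 (-0.15). Rps27l again was the 1 gene past 1.5-fold, which 6.69% of all genes passed.

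The comparisons with the warm array asked what each supplement changes in warm-perfused kidneys. For heparin the median was -0.0081 (0.00 over all genes), with 18 genes higher and 24 lower, where 49.9% of all genes were higher, and the other genes with a mean of at least 12 had a median of 0.02 with 55.2% higher. Rps27l (0.41), Rpl7l1 (0.21), Rpsa (0.19), Rps3a (0.13) and Rpl14 (0.06) were highest, and Rpl19 (-0.21), Rps23 (-0.21), Rpl23a (-0.16), Rpl3 (-0.15) and Rpl27a (-0.14) lowest. For PPS the median was -0.03 (0.00 over all genes), with 11 genes higher, 30 lower and 1 equal, where 46.8% of all genes were higher. The direction turned when each array was centred on its median over all genes. The median was then 0.02, with 30 genes higher and 12 lower. This centring moved every gene by 0.045, so the turn is not a reversal particular to the ribosomal proteins. Poly-A scaling gave a median of 0.06 for them and 0.09 for all genes. The other genes with a mean of at least 12 had a median of 0.0079 as deposited, with 54.5% higher. Rps27l (0.22), Rpl7l1 (0.17), Rpsa (0.11), Rpl41 (0.09) and Rplp0 (0.06) were highest, and Rps23 (-0.12), Rpl4 (-0.12), Rpl6 (-0.09), Rpl23a (-0.09) and Rpl27a (-0.08) lowest. No gene passed 1.5-fold against the warm array, which 5.6% of all genes did with heparin and 5.5% with PPS. The middle 50% of the genes lay between -0.05 and 0.0039 for PPS minus warm, the narrowest such range of the 6 comparisons.

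Heparin minus PPS set the supplements against each other at the same concentration. The median was 0.01 (0.0061 over all genes), with 26 genes higher, 15 lower and 1 equal, where 51.7% of all genes were higher. Here too the direction turned when arrays were centred on their median over all genes. The median was then -0.03, with 11 genes higher and 31 lower. This centring moved every gene by -0.04, so the turn is not a reversal particular to the ribosomal proteins. Poly-A scaling gave a median of -0.17 for them and -0.17 for all genes. The other genes with a mean of at least 12 had a median of 0.0040 as deposited, with 51.2% higher. Rps27l (0.19), Rps3a (0.15), Rpl6 (0.13), Rps3 (0.11) and Rpsa (0.08) were highest, and Rpl19 (-0.14), Rps28 (-0.13), Rpl41 (-0.10), Rpl5 (-0.10) and Rpl3 (-0.09) lowest. No gene differed by 1.5-fold between the supplements, a size that 2.68% of all genes passed. With 1 array each, this does not show that heparin and PPS act alike on these genes.

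**Figure D4:**
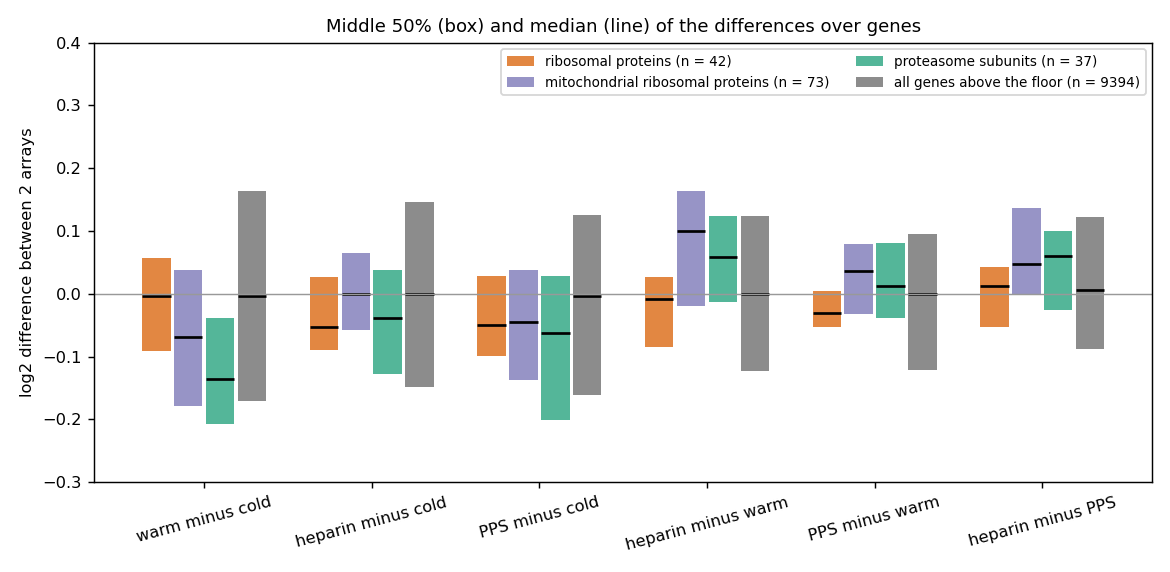
Log2 difference between 2 arrays in each of the 6 comparisons, with boxes for the middle 50% of the genes and a line at the median, for cytosolic ribosomal proteins, mitochondrial ribosomal proteins, proteasome subunits and all genes above the floor. The boxes of the cytosolic ribosomal proteins are narrower than those of all genes in every comparison and include 0. Those of the mitochondrial ribosomal proteins and proteasome subunits are also narrower than those of all genes in every comparison.

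With limma, all warm-perfused arrays together were compared with the cold one over all 9394 genes, with 2 residual degrees of freedom that hold supplement effects as well as chance. At an adjusted p under 0.05 it called 0 of the 42 genes and 1 of all genes (0.0106%). At an unadjusted p under 0.05 it found 2 of the 42 (4.76%), where 16.2% of all genes passed. These were Rps27l (log2 difference 0.67, SE 0.20, limma adjusted p = 0.293) and Rpl7 (-0.15, SE 0.05, limma adjusted p = 0.296). The fit assumes the same variance for the single cold array as for the other 3. How the unadjusted share of these genes compares with that of all genes depends on the settings. The gap narrowed with an intensity trend and robust eBayes. It turned round without the filter on low values and with scaling to the poly-A controls. It stayed with the floor applied and with each warm-perfused array left out. The lower share is therefore not read as a property of these genes.

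Besides the selected genes, 36 probe sets carry several symbols of which at least 1 is a cytosolic ribosomal protein, because the gene and its copies share sequence, and 34 of them were above the floor. They were not used to choose or fit anything above and offer a second reading of the group. Against the cold array their medians were -0.02 for heparin, 0.0007 for PPS and 0.0090 for warm. Against the warm array they were -0.04 for heparin and -0.03 for PPS, and heparin minus PPS gave -0.0071. None passed 1.5-fold, and the median span was 0.10. The widest, 0.32, belonged to a probe set for Rpl22l1 and 2 further copies, with 13.26 on the heparin, 13.27 on the PPS, 13.58 on the warm and 13.44 on the cold array. Rpl22l1 was among the genes to be named whatever their values, while its place as the widest was read from these data.

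The 6 genes below the floor on all arrays were Rpl28, Rpl30, Rps13, Rpl3l, Rpl26l1 and Rpl39l1, with values between 2.11 and 2.46 that the background model sets. For Rpl28, Rpl30 and Rps13 this describes the probe set and not the gene, since probe sets with several symbols gave signals of at least 13.19 for each. Among genes with several probe sets, a weak second one for Rpl7 had 5.95 on the heparin, against 4.46 on the PPS, 3.72 on the warm and 4.39 on the cold array, where the probe set used stayed between 14.12 and 14.29. With the other side at the floor this is a difference of at least 1.44, found on 1 of the 2 probe sets. A second probe set for Rps24 differed by -0.55 in warm minus cold, against 0.09 for the one used.

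Other genes of the translation machinery were read from lists chosen by function. Of 11 other messenger RNAs with a TOP tract above the floor, among them the elongation factors Eef1g and Eef2, none passed 2-fold, and the largest difference was that of Hnrnpa1, a nuclear RNA-binding protein, at 0.67 in warm minus cold. Against the cold array their medians were -0.06 for heparin, -0.12 for PPS and -0.09 for warm. Of 23 initiation factors none passed 2-fold. Of 35 ribosome biogenesis genes, with a median span of 0.24 against 0.29 over all genes, 1 did, Nat10, an acetyltransferase of ribosomal RNA. Nat10 had 6.71 on the heparin, 6.53 on the PPS, 6.32 on the warm and 5.69 on the cold array, and the log2 difference was 1.02 in heparin minus cold. Its order of arrays is that of Rps27l, and a link between Nat10 and Rps27l was not tested.

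Of 14 regulators of TOP messenger RNAs and ribosome synthesis, with a median span of 0.25, 2 passed 2-fold in some comparison, where 5.22% of all genes did. Ddit4, an inhibitor of mTOR signalling induced by stress, had 9.78 on the heparin, 9.64 on the PPS, 10.38 on the warm and 8.68 on the cold array. Myc, a transcription factor that drives ribosome synthesis, had 6.18 on the heparin, 6.06 on the PPS, 7.59 on the warm and 6.06 on the cold array. Myc was 2.90-fold higher in warm minus cold, and against the warm array its log2 difference was -1.41 with heparin and -1.54 with PPS. The kinase Mtor, its substrate Rps6kb1 and Larp1 were within 2-fold in all 6 comparisons. Translation of TOP messenger RNAs, which these regulators act on, was not measured by these arrays.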

How the data were processed

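Messenger RNA was measured on 4 Affymetrix rat arrays, 1 per group, each with 6 ug of total RNA pooled from 3 kidneys, per the labels' protocols. The authors deposited log2 expression values per probe set, and the submitters' processing notes name GCRMA, which corrects background, normalizes between arrays and summarises probes; no version and no genome build are named in the sources used here. That the values, from 2.11 to 16.4, are log2 was inferred from this range, and 27.1% to 27.3% of probe sets per array lay at the lowest value. GCRMA gives all arrays nearly the same distribution, so a change in total messenger RNA would not be seen. The number of arrays limits the precision.

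Of 31099 probe sets, 57 are controls and 20832 have 1 symbol, updated through the Entrez identifier to RefSeq GRCr8, where 46 of the 48 ribosomal protein genes were found. Values under the floor (50th percentile) were raised to it. A size of 2-fold served for counts, with no p-value between 2 arrays. limma 3.58.1 (R 4.3.3; lmFit and eBayes, Benjamini-Hochberg over 9394 genes) used values as deposited and pooled the 3 warm-perfused arrays. The size rule and the limma fit were tried on simulated data with changes larger than any seen in these genes. This says nothing about finding smaller differences, and the search for start site runs was not tried this way. Named are the 5 largest differences in each direction per comparison, chosen members of known role, members below the floor and probe sets of 1 gene that disagree. Other genes past 2-fold are named from the lists of translation genes. Of the cell type marker lists, not every gene past 2-fold is named. The members and lists were chosen with earlier results of these data known.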

Additional observations from a re-analysis of the deposited data

How the results depend on the processing

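Other floors, probe set rules, scalings and member sets were tried, 3 of them chosen after seeing the data. The medians of the 6 comparisons moved by less than 0.1 on the log2 scale in 56 of 60 cases. Apart from the scaling to the poly-A controls they ran between -0.06 and 0.02. As reported they lay between -0.05 and 0.01, so a limit of 0.1 also passes a change of sign and says little about direction. Scaled to those controls, which lowers every gene relative to the cold array, the median against that array was -1.41 for heparin, -1.23 for PPS and -1.27 for warm, with 41 of the 42 genes past 2-fold in each, all lower, as were 90.2%, 80.1% and 82.8% of all genes; Rps27l was the exception. The median of all genes was then -1.36, -1.18 and -1.27 in the same order. In heparin minus PPS that scaling gave a median of -0.17, with -0.17 over all genes. With the mean of all probe sets 1 gene passed 2-fold in heparin minus warm, Rpl7, through its weak second probe set, whose warm value lies below the floor. With each probe set raised to the floor before averaging, 0 genes passed. Centring on the median of all genes turned the median to 0.02 in PPS minus warm and -0.03 in heparin minus PPS. It did so by shifting every gene, by 0.045 and -0.04 in the same order. At 1.5-fold 1 gene passed against the cold array with heparin and 1 with PPS, Rps27l in both.

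In limma, 0 genes were called with an intensity trend, with the floor applied and with each warm-perfused array left out in turn (range 0 to 0, where 2 arrays against 1 leave 1 residual degree of freedom). Without the filter on low values it called 1 of 48 genes, where it called 1.71% of all 14218, namely Rpl26l1, whose values of 2.18 on all 3 warm-perfused arrays against 2.11 on the cold array lie below the floor. Scaled to the poly-A controls it called 42 genes, as it did 96.5% of all genes. No paired analysis was possible because each group has 1 array. No difference between 2 arrays can be set against replicate error here.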
